A study of Mus musculus with 6 samples.

Results

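Krüppel-like factors (KLFs) are transcription factors that share zinc fingers at their C-terminal end and bind GC-rich and CACCC elements of promoters. Several hold lymphocytes at rest: KLF2 keeps naive cells quiescent and directs their trafficking, and KLF4 and KLF9 slow the entry of B cells into division. FOXO1, which is active while PI3K and AKT signalling is low, is a known activator of KLF2 and KLF4 in lymphocytes. The results below concern 8 KLF genes given by name (Klf2, Klf3, Klf4, Klf6, Klf7, Klf9, Klf10 and Klf13), each matched to its Ensembl identifier by the symbols of GENCODE M21, so that 8 of 54838 genes are described. All 8 passed the filter on low counts.

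Both groups were mouse splenic B cells, sorted as naive from 10 male mice of 3 months (immunised with SRBC, sheep red blood cells, 9 days before; 2 independent experiments, cells pooled ahead of culture). All cultures held mIL4 (80 ng/ml) and anti-CD40 (5 µg/ml), which activate B cells, for 5 days. The 3 DMSO libraries (A, B and C) received the solvent and the 3 Cpd10 libraries 1 µM of Cpd10, labelled a Foxo1 inhibitor, for 48 h from day 3. The letters are not said to be separate cultures, so the spread behind each p-value, that between these 6 libraries, may be technical. No resting cells and no cells lacking Foxo1 are among the groups.

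Libraries held 36873204 to 44859930 counts. They fell into 2 sets that crossed the treatment unevenly: DMSO A, DMSO C and Cpd10 A (set 1) stood apart from DMSO B, Cpd10 B and Cpd10 C (set 2) on the first principal component (46.3% of the variance). The sets were read from the counts and are not in the labels, so fits with the set as a term are exploratory. The 10 B cell markers summed to 13232 to 15019.9 CPM with DMSO and 11120.2 to 13508 with Cpd10, where CPM is the count scaled to the TMM-adjusted library size. Most of the sum was Cd74 (8192 ± 769 and 6939 ± 632 CPM, SD, n = 3 each). Of the 10, 3 (Cd74, Ptprc and Blnk) had every Cpd10 library below every DMSO library, against 7.32% of tested genes. Ms4a1 averaged 461 ± 160 against 294 ± 21.2 CPM. Log2 fold changes were below 0 for 7 and above 0 for 3, and edgeR and DESeq2 called 0. The 10 endothelial markers, listed because endothelium expresses Klf2 and Klf4 strongly, summed to 20.0 to 29.7 and 18.4 to 26.2 CPM, with Tie1 and Emcn at 0 counts throughout and Kdr and Tek at no more than 0.319 CPM in any library. The sum hides opposite members: Pecam1 averaged 13.4 ± 5.28 CPM with DMSO against 4.88 ± 0.880 with Cpd10, with all Cpd10 libraries below DMSO as for Klf2, and Esam 7.71 ± 1.33 against 16.2 ± 4.32 CPM (SD, n = 3 each). Neither passed edgeR's test with the group alone (adjusted p by edgeR = 0.130 and 0.160), and both passed with the library set fitted (0.0356 and 0.0122) and by DESeq2 (adjusted p by DESeq2 = 3.01e-04 and 0.00308). Of the 5 endothelial markers tested, 3 had log2 fold changes below 0 (Pecam1, Cdh5 and Thbd) and 2 above (Esam and Nos3). Cdh5 averaged 1.02 ± 0.327 against 0.435 ± 0.349 CPM and Thbd 1.09 ± 1.02 against 0.288 ± 0.339 CPM, with overlapping groups. T cell markers summed to 45.8 to 73.9 and 29.7 to 40.4 CPM, mostly Lck (42.7 ± 5.89 and 23.8 ± 2.65 CPM), with Cd3d, Cd3e and Cd3g at no more than 0.385 CPM in any library. Lck did not pass with the group alone (adjusted p by edgeR = 0.0786). It passed with the set fitted (0.00216) and by DESeq2 (adjusted p by DESeq2 = 6.99e-04). Markers of lower level did the same. Eomes (NK cells) averaged 2.00 ± 0.212 against 0.288 ± 0.124 CPM, and Hbb-bt (erythroid cells) 0.133 ± 0.117 against 2.54 ± 0.431 CPM. Myeloid markers summed to 43.1 to 53.9 and 66.4 to 70.4 CPM, with Lyz2 and Csf1r at no more than 0.248 CPM in any library. Cd68 was the marker gene that edgeR called (17.7 ± 3.36 and 48.6 ± 1.39 CPM, adjusted p by edgeR = 0.0168), while the other 3 tested myeloid markers had log2 fold changes below 0. Of these Adgre1 averaged 18.5 ± 3.97 against 12.0 ± 2.83 CPM (adjusted p by edgeR = 0.529, and 0.0252 with the set) and Mpeg1 12.4 ± 4.75 against 7.63 ± 1.62 CPM. The part of these genes' cells in the KLF levels was not tested, and in bulk RNA fewer cells of a type and less RNA per cell cannot be told apart.

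Klf2 and Klf3 were the KLF transcripts furthest below DMSO, with means 2.74-fold and 2.46-fold lower in Cpd10, and neither passed the test over all genes. These folds take no account of the uneven sets. Fitting the set moved the log2 difference of Klf2 from -1.46 to -1.28 and that of Klf3 from -1.30 to -1.10. By edgeR's quasi-likelihood test at an adjusted p under 0.05, 0 of the 8 were called, where the rule called 0.37% of 15136 tested genes. Before adjustment, p was under 0.05 for 2 of the 8, both lower, where 8.39% of tested genes reached it and 4.53% did so as lower. DESeq2 called 2 of the 8 (Klf2 and Klf3, both lower; 2% of genes in either direction and 0.849% as lower). Limma-voom called 0 (0.304% of genes), and edgeR without the low-count filter called 1, Klf3 (0.773% of genes). With the library set as a term edgeR called 1, again Klf3 (3.96% of genes in either direction, 1.64% as lower). Of the 8 log2 fold changes 6 were below 0, among them Klf10 at only -0.0025, and the median was -0.43. Over all tested genes the median was -0.0012, with 50.2% below 0. The 8 were chosen with earlier results of these data known.

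Klf2 encodes the factor best known for lymphocyte quiescence and for activating the egress receptor gene S1pr1. It lies on chromosome 8 at 72319033 to 72321656 of GRCm38, plus strand (ENSMUSG00000055148). The 221 bases before its annotated transcripts (chr8:72318812-72319032, GRCm38.p6, plus strand, from RefSeq) are shown because the Klf2 promoter is known for a MEF2 element, through which the kinase ERK5 acts. Capitals mark the match to that element.
Klf2: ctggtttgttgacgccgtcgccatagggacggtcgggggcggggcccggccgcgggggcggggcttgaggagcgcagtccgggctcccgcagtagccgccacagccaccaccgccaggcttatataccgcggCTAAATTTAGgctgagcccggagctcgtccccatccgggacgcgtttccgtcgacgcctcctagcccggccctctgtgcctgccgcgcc
The match, to the MEF2 consensus on both strands, lies 118 to 109 bases before the RefSeq start, and 2.92% of 32851 mouse promoter windows of 250 bases hold one. The forkhead core TGTTTA, the letters at the heart of FOXO sites, was not found on either strand of that window. No binding was measured, so a match describes letters only.

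Klf2 stood at 80.8 CPM in DMSO A, 46.5 in DMSO B and 99.4 in DMSO C, and at 24.6 CPM in Cpd10 A, 33.4 in Cpd10 B and 24.6 in Cpd10 C. Every Cpd10 library was below every DMSO library, and DMSO B, of set 2, was the lowest with DMSO. The means were 75.5 ± 26.8 and 27.5 ± 5.10 CPM (SD, n = 3 each). On the log2 scale the fitted difference was -1.46 (SE 0.28, 95% interval -2.12 to -0.79, adjusted p by edgeR = 0.120).

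The Klf2 ratio differed in size between the sets. Within set 1, Cpd10 A at 24.6 CPM stood against a mean of 90.1 CPM for DMSO A and C, a log2 ratio of -1.87. Within set 2, Cpd10 B and C averaged 29.0 CPM against 46.5 CPM for DMSO B, a log2 ratio of -0.68. Cpd10 was thus lower in both sets, and whether the ratios differ was not tested. Fitting the set gave -1.28 (SE 0.37, adjusted p by edgeR = 0.226). Leaving out DMSO B, with the group alone, gave -1.71 (adjusted p by edgeR = 0.0140). DMSO then held set 1 only, while Cpd10 held libraries of both sets. Leaving out any other single library, with the group alone, gave an adjusted p by edgeR from 0.281 to 0.520.

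Klf3 encodes a repressor that recruits CtBP proteins and shapes B cell subsets of the spleen. The gene spans 64803388 to 64832901 of chromosome 5, plus strand (ENSMUSG00000029178). Its exons share 404 bases with Gm20033, annotated as a processed transcript of the opposite strand, which had at most 72 counts in a library where Klf3 had at least 1166. The bases before the first Klf3 transcript (chr5:64803271-64803387, GRCm38.p6, plus strand, from RefSeq; Gm20033 overlaps them) are shown with matches to CACCC, the element KLF proteins bind, in capitals.
Klf3: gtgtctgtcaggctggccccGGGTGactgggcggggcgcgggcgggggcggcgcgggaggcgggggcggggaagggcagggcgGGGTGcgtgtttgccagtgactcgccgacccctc
In all, 5 CACCC matches (or GGGTG, the other strand) lie in the 250 bases before the RefSeq start of Klf3, 2 of them in the stretch shown. The motif is common: 52.0% of the 32851 windows hold it, as do 5 of the 7 KLF genes with a RefSeq entry (Klf10 has none in the table).

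Klf3 stood at 105 CPM in DMSO A, 58.9 in DMSO B and 86.9 in DMSO C, and at 39.5 CPM in Cpd10 A, 31.2 in Cpd10 B and 31.0 in Cpd10 C. The groups did not overlap, and within each group set 1 was above set 2. Means were 83.6 ± 23.2 and 33.9 ± 4.82 CPM (SD, n = 3 each), a fitted log2 difference of -1.30 (SE 0.22, 95% interval -1.81 to -0.79, adjusted p by edgeR = 0.0778).

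The log2 ratios of Klf3 were -1.28 within set 1 and -0.92 within set 2. Klf3 passed in the fit with the set, at -1.10 (SE 0.11, adjusted p by edgeR = 1.07e-04). It also passed in that fit without DMSO A, DMSO C, Cpd10 B or Cpd10 C (adjusted p by edgeR from 1.04e-05 to 0.00268). Without Cpd10 A or DMSO B, that fit compares the groups in 1 set only, where a group holds only 1 library. The estimates were then -0.91 and -1.28. With the group alone, leaving out DMSO B gave -1.50 (adjusted p by edgeR = 0.0140), with set 1 only left in DMSO and both sets in Cpd10. Leaving out 1 of the other 5, with the group alone, gave an adjusted p by edgeR from 0.0906 to 0.379.

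**Figure D1:**
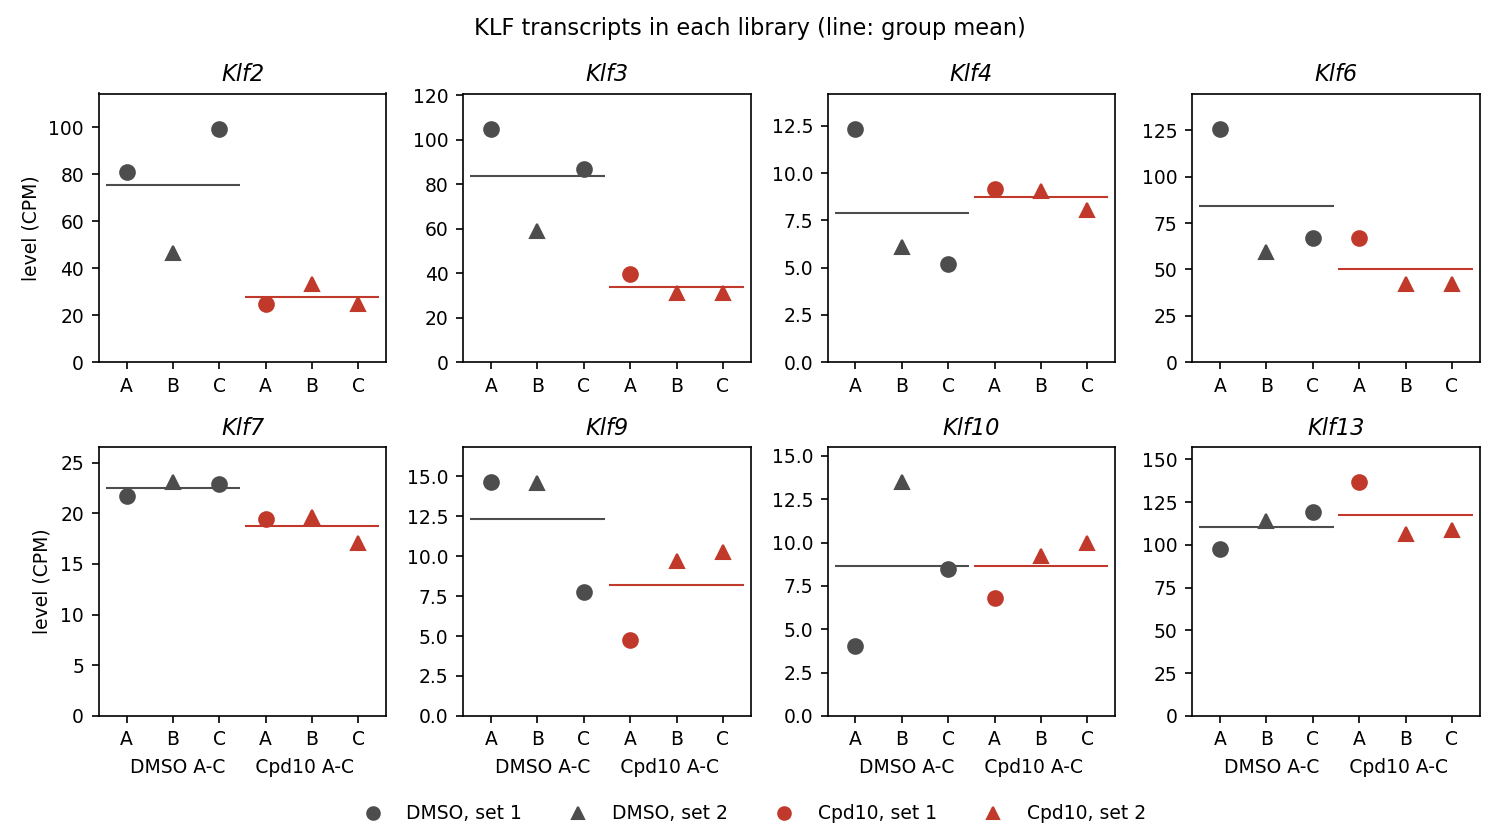
Level of each KLF transcript (CPM, linear axis from 0) in DMSO A to C (grey) and Cpd10 A to C (red); circles are libraries of set 1, triangles of set 2, and lines are means of 3 libraries. In Klf2, Klf3 and Klf7 all Cpd10 points lie below all DMSO points, and the other 5 genes overlap.

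Klf6 and Klf7 form a closely related pair. KLF6 is an early response and injury-induced factor, and KLF7 has been studied in neurons. Klf6 (chromosome 13, 5861482 to 5870394, plus strand) stood at 126 CPM in DMSO A, 59.5 in DMSO B and 67.1 in DMSO C, and at 66.8 CPM in Cpd10 A, 42.2 in Cpd10 B and 42.0 in Cpd10 C. DMSO A was far above the other DMSO libraries, and Cpd10 A lay within the DMSO range. The fitted log2 difference was -0.74 (SE 0.32, 95% interval -1.51 to 0.028, adjusted p by edgeR = 0.619), and -0.33 without DMSO A. Ratios within sets 1 and 2 were -0.53 and -0.50 on the log2 scale, with Cpd10 A just under DMSO C.

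Klf7 (chromosome 1, 64029447 to 64122282, minus strand) was the steadiest of the 8 among DMSO libraries, at 21.7 CPM in DMSO A, 23.1 in DMSO B and 22.9 in DMSO C. It stood at 19.5 CPM in Cpd10 A, 19.6 in Cpd10 B and 17.1 in Cpd10 C, all below DMSO. This small gap gave -0.27 on the log2 scale (SE 0.12, 95% interval -0.55 to 0.017, adjusted p by edgeR = 0.629). In all, 3 of the 8 (Klf2, Klf3 and Klf7) had every Cpd10 library below every DMSO library, against 7.32% of tested genes, and 0 had every one above. Taken within each set alone, Cpd10 was below DMSO for 5 of the 8 (those and Klf6 and Klf9), a looser condition met by 18.5% of tested genes.

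Klf4, a pluripotency factor and FOXO target that slows B cell division, and Klf9, a glucocorticoid-induced gene of resting naive B cells, were both low. Their windows are shown because, of the 7 KLF genes with an entry, these 2 hold the forkhead core TGTTTA within 250 bases before the start. Both run 5′ to 3′ on the gene's strand (RefSeq, GRCm38.p6): Klf4 at chr4:55532476-55532725, minus strand, and Klf9 at chr19:23140976-23141225, plus strand. Capitals mark the forkhead match and, in Klf9, also a CACCC match.
Klf4: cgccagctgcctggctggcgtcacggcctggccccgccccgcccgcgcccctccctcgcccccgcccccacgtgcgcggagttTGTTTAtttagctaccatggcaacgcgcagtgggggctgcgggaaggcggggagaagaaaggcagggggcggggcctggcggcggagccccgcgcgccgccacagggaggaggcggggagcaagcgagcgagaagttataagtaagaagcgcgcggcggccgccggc
Klf9: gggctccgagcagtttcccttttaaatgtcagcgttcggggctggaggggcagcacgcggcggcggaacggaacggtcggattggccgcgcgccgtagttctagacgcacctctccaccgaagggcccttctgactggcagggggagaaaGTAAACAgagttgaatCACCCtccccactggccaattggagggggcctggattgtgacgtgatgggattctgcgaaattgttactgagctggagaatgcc
The Klf4 match lies 167 to 162 bases before the start. Klf9 holds the longer TGTTTAC, which contains the core, on the other strand as GTAAACA, 100 to 94 bases before the start. On either strand the core is in 12.0% and the longer motif in 3.17% of the windows.

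Klf4 (chromosome 4, 55527143 to 55532466, minus strand) stood at 12.4 CPM in DMSO A, 6.08 in DMSO B and 5.21 in DMSO C, and at 9.14 CPM in Cpd10 A, 9.08 in Cpd10 B and 8.04 in Cpd10 C. The Cpd10 libraries lay close together inside the DMSO range, whose highest library was 2.37-fold above its lowest. The estimate was 0.15 on the log2 scale (SE 0.33, 95% interval -0.62 to 0.92, adjusted p by edgeR = 0.948), and its sign turned without DMSO B or DMSO C. Klf9 (chromosome 19, 23141226 to 23168134, plus strand) stood at 14.6 CPM in DMSO A, 14.6 in DMSO B and 7.74 in DMSO C, and at 4.74 CPM in Cpd10 A, 9.69 in Cpd10 B and 10.2 in Cpd10 C. DMSO C lay inside the Cpd10 range, and Cpd10 A was the lowest library. Its estimate was -0.59 (SE 0.36, 95% interval -1.43 to 0.26, adjusted p by edgeR = 0.760), and -0.89 with the set fitted (SE 0.27, adjusted p by edgeR = 0.118). Log2 ratios of Klf9 were -1.24 within set 1 and -0.55 within set 2.

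Klf10, an early gene of TGF-beta signalling, and Klf13, a regulator of chemokine expression in T cells, had estimates near 0. Klf10 (chromosome 15, 38291463 to 38300706, minus strand) stood at 4.03 CPM in DMSO A, 13.5 in DMSO B and 8.49 in DMSO C, and at 6.79 CPM in Cpd10 A, 9.21 in Cpd10 B and 9.95 in Cpd10 C. DMSO A and DMSO B were the lowest and the highest of the 6, 3.35-fold apart. The estimate of -0.0025 had a wide interval (SE 0.41, 95% interval -0.96 to 0.96, adjusted p by edgeR = 0.999), although the smallest count behind it was 180 reads.

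Klf13 (chromosome 7, 63886351 to 63938915, minus strand) stood at 97.5 CPM in DMSO A, 114 in DMSO B and 119 in DMSO C, and at 137 CPM in Cpd10 A, 106 in Cpd10 B and 109 in Cpd10 C. The groups overlapped, with Cpd10 A highest. The estimate was 0.090 (SE 0.13, 95% interval -0.22 to 0.40, adjusted p by edgeR = 0.913), and it was -0.026 without Cpd10 A.

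**Figure D2:**
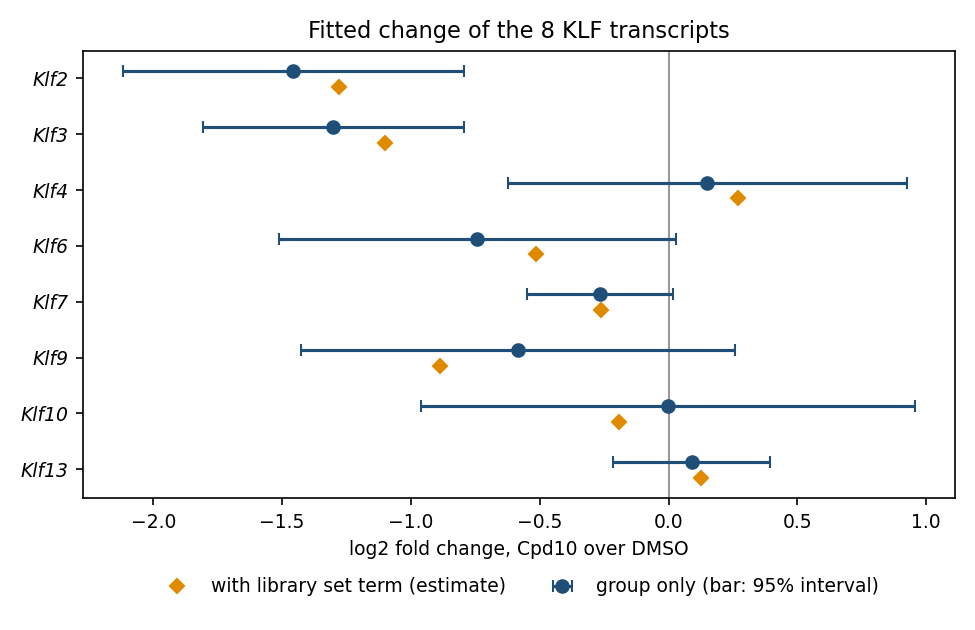
Log2 fold change of each KLF transcript, Cpd10 over DMSO, from edgeR with the group alone (blue points, bars are 95% intervals) and with the library set as a term (orange diamonds, estimates only). The intervals of Klf2 and Klf3 lie below 0, from -2.12 to -0.79 and from -1.81 to -0.79, and those of the other 6 include 0.

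Per length of exon, Klf2 led in DMSO at 40.9 ± 14.5 CPM per kilobase of merged exon, followed by Klf6 at 19.2 ± 8.27, Klf13 at 14.6 ± 1.50 and Klf3 at 7.43 ± 2.07 (SD, n = 3 each). Klf2 was above Klf6 in 3 of 3 libraries although their ranges overlapped, Klf6 and Klf13 overlapped, and Klf13, Klf3 and Klf7 were separate from each other. Klf7, Klf4, Klf9 and Klf10 lay between 2.07 and 2.77 CPM per kilobase, each overlapping its neighbour.

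In Cpd10 the levels of Klf13 (15.6 ± 2.24 CPM per kilobase), Klf2 (14.9 ± 2.76) and Klf6 (11.5 ± 3.24) overlapped from one to the next (SD, n = 3 each), with Klf13 above Klf2 in 2 of 3 libraries. Klf3, at 3.02 ± 0.428, was separate from Klf6 and overlapped Klf4 at 2.87 ± 0.204. Klf4 was separate from Klf7 below it, and Klf7, Klf10 and Klf9 overlapped in turn.

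**Figure D3:**
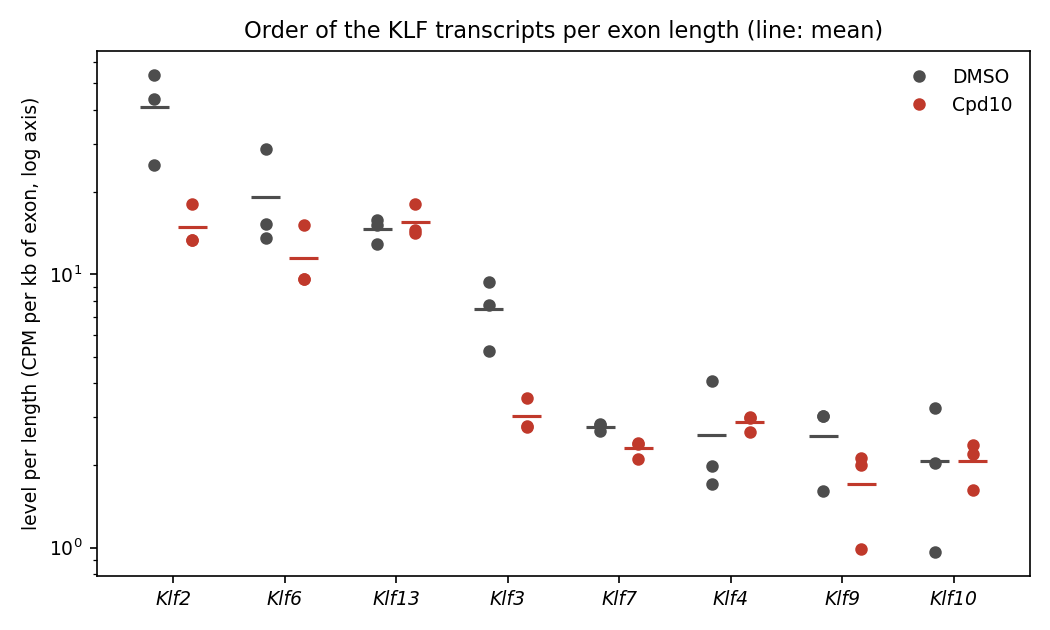
Level per exon length (CPM per kilobase of merged exon, log axis) of the 8 KLF transcripts in DMSO (grey) and Cpd10 (red), 3 libraries each, ordered by the DMSO mean; lines are means. The Klf2 mean is 40.9 in DMSO and 14.9 in Cpd10, next to Klf13 at 15.6.

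Over the 6 libraries, Klf2 and Klf3 varied together (Pearson r of log2 CPM 0.926, n = 6), as did Klf3 and Klf6 (0.860), while Klf9 and Klf13 (-0.847) and Klf6 and Klf10 (-0.791) ran opposite. These are descriptions, since the libraries share the treatment and the sets. Of 8686 genes compared, the 3 closest to Klf2 were H2-Oa (r = 0.999) and H2-Ab1 (0.997), both of the MHC class II region, and Dirc2 (0.995). H2-Ab1 averaged 2345 ± 442 CPM with DMSO against 1421 ± 81.0 with Cpd10 (SD, n = 3 each; adjusted p by edgeR = 0.211). H2-Oa averaged 69.1 ± 11.1 against 46.9 ± 2.88 CPM (adjusted p by edgeR = 0.220).

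Closest to Klf3 were Irf8 (r = 0.992), the gene of a B cell and myeloid transcription factor, Sh3kbp1 (0.992) and Asap1 (0.991), n = 6. All 3 were lower in every Cpd10 library than in any DMSO library, and lower in DMSO B than in DMSO A and C. As they were picked by their r with Klf3 over these libraries, sharing its pattern follows from the choice. None of the 3 passed (adjusted p by edgeR = 0.208, 0.313 and 0.203). Irf8 averaged 488 ± 48.5 CPM with DMSO against 354 ± 10.7 with Cpd10 (SD, n = 3 each). The closest to Klf6 was Mtfmt (0.991), then Tjap1 (0.990) and Map4k4 (0.988). For Klf7 they were Gripap1 (0.989), Sec23a (0.969) and Zfp141 (0.968). For Klf9 they were Rcc2 (0.996), Naa40 (0.991) and Rnf2 (0.990), and for Klf13 Ccnt2 (0.992), Zgrf1 (0.990) and Cog4 (0.987). None of these 12 passed edgeR's test, and the highest of 8686 correlations over 6 points ranks genes only.

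**Figure D4:**
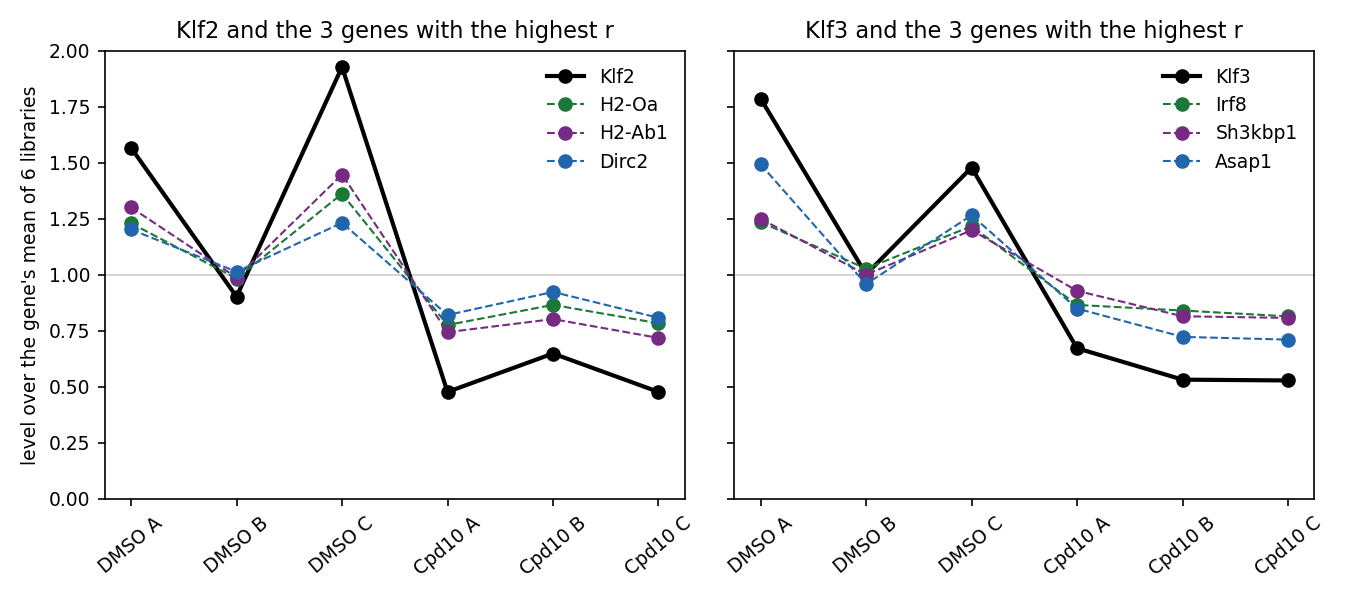
Level in each library divided by the gene's own mean of the 6 libraries, for Klf2 (left) and Klf3 (right) and the 3 genes with the highest Pearson r; lines only join a gene's points. All genes shown are lower in Cpd10 A to C than in DMSO A to C, a likeness that follows from the choice by r.

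The rest of the family and linked genes were read from lists. Beside the counts of every list below, 8.39% of all tested genes had an unadjusted p under 0.05, 4.53% as lower. DESeq2 called 2% of genes and edgeR with the set 3.96%. Of 9 other KLF genes 4 were tested, and edgeR and DESeq2 called 0; 1 reached an unadjusted p under 0.05. This was Klf11, a close relative of Klf10, at 11.8 ± 2.40 CPM with DMSO against 8.27 ± 1.26 with Cpd10 (SD, n = 3 each; -0.52 on the log2 scale, adjusted p by edgeR = 0.584). Klf16 and Klf12 had 0.077 and 0.11, and Klf14 and Klf17 had 0 counts in all libraries. Of 9 genes of the related SP family 4 were tested; edgeR and DESeq2 called 0, and 0 reached an unadjusted p under 0.05. Sp3 averaged 145 ± 10.1 against 138 ± 17.5 CPM.

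Among 11 genes of KLF cofactors, all tested, edgeR and DESeq2 called 0, and 0 reached an unadjusted p under 0.05. Ctbp1, the gene of a corepressor that KLF3 recruits, averaged 245 ± 15.3 against 278 ± 28.5 CPM (SD, n = 3 each; 0.18 on the log2 scale, adjusted p by edgeR = 0.752). Crebbp and Sin3b had -0.23 and 0.14. The same counts, 0 by both tools and 0 unadjusted, were found for 12 genes upstream of KLF2 or of its turnover, all tested. Mef2a and Mef2d, genes of factors that bind MEF2 elements, had -0.28 and -0.16 (adjusted p by edgeR = 0.673 and 0.710). Foxo1 averaged 138 ± 16.5 against 118 ± 10.0 CPM (-0.22, adjusted p by edgeR = 0.711); an inhibitor of the protein need not alter its transcript, so this does not check the labels.

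Of 12 trafficking genes linked to KLF2, all tested, edgeR called 0 and 3 reached an unadjusted p under 0.05 (2 lower, 1 higher). DESeq2 called Ccr7 lower and Il7r higher (adjusted p by DESeq2 = 0.00135 and 0.00618), and edgeR with the set called Cxcr4 lower (adjusted p = 0.0282). Ccr7, a chemokine receptor gene, averaged 124 ± 36.0 against 57.3 ± 16.9 CPM (SD, n = 3 each; adjusted p by edgeR = 0.227). Il7r, the gene of the interleukin 7 receptor and a known FOXO1 target, averaged 1.98 ± 2.13 against 33.7 ± 11.1 CPM (adjusted p by edgeR = 0.260), with all Cpd10 libraries above DMSO. S1pr1, the egress receptor gene and best known KLF2 target, ranged from 6.55 CPM in DMSO B to 21.4 CPM in DMSO C, and its Cpd10 libraries lay between them (-0.18, SE 0.44, adjusted p by edgeR = 0.954).

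For 11 cell-cycle genes linked to KLFs, all tested, edgeR and DESeq2 called 0, and 2 reached an unadjusted p under 0.05, both higher. Cdkn1b, the gene of the inhibitor p27 and a known FOXO target, averaged 91.8 ± 7.62 against 114 ± 0.751 CPM (SD, n = 3 each; 0.31, SE 0.093, adjusted p by edgeR = 0.356). Cdkn2d, of another kinase inhibitor, had 0.53 (adjusted p by edgeR = 0.507). Of 18 lymphocyte quiescence genes 17 were tested, edgeR and DESeq2 called 0, and 2 reached an unadjusted p under 0.05: Tsc22d3 (-0.43), the gene of a glucocorticoid-induced leucine zipper, and Foxo4 (0.37). With the set fitted, edgeR called Foxp1, of a factor of naive B cell rest, higher (0.48, adjusted p = 0.0102).

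Of 17 immediate early genes, a class in which some KLF genes are placed, all were tested. Among them edgeR called 0 and 4 reached an unadjusted p under 0.05, all lower, against 4.53% of all tested genes as lower. DESeq2 called Jun and Atf3 lower (adjusted p by DESeq2 = 0.0113 and 0.0221), and edgeR with the set called Jun lower (adjusted p = 0.0326). Jun averaged 136 ± 32.6 against 81.8 ± 4.13 CPM, Atf3 13.3 ± 6.80 against 5.78 ± 0.495, and Fos 40.6 ± 26.6 against 10.4 ± 7.57 (SD, n = 3 each). As for Klf6, DMSO A was the highest library for each of these 3. Of 14 TGF-beta response genes 13 were tested, edgeR called 0 and 3 reached an unadjusted p under 0.05 (1 higher, 2 lower). The lower ones were Tgif1 and Tgfbr2, of a SMAD corepressor and a TGF-beta receptor, at -0.76 and -0.30 on the log2 scale (adjusted p by edgeR = 0.340 and 0.400), both with all Cpd10 libraries below DMSO. DESeq2 called Smad3, of a TGF-beta signal transducer, higher (20.0 ± 3.83 against 35.0 ± 4.63 CPM, adjusted p by DESeq2 = 0.00636), and edgeR with the set called Smad3 and Skil higher. Of 9 glucocorticoid response genes 8 were tested, edgeR and DESeq2 called 0, and 3 reached an unadjusted p under 0.05, all lower (Tsc22d3, Nfkbia and Sgk1). The median log2 fold changes of these 3 lists were -0.41, -0.040 and -0.20.

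**Figure D5:**
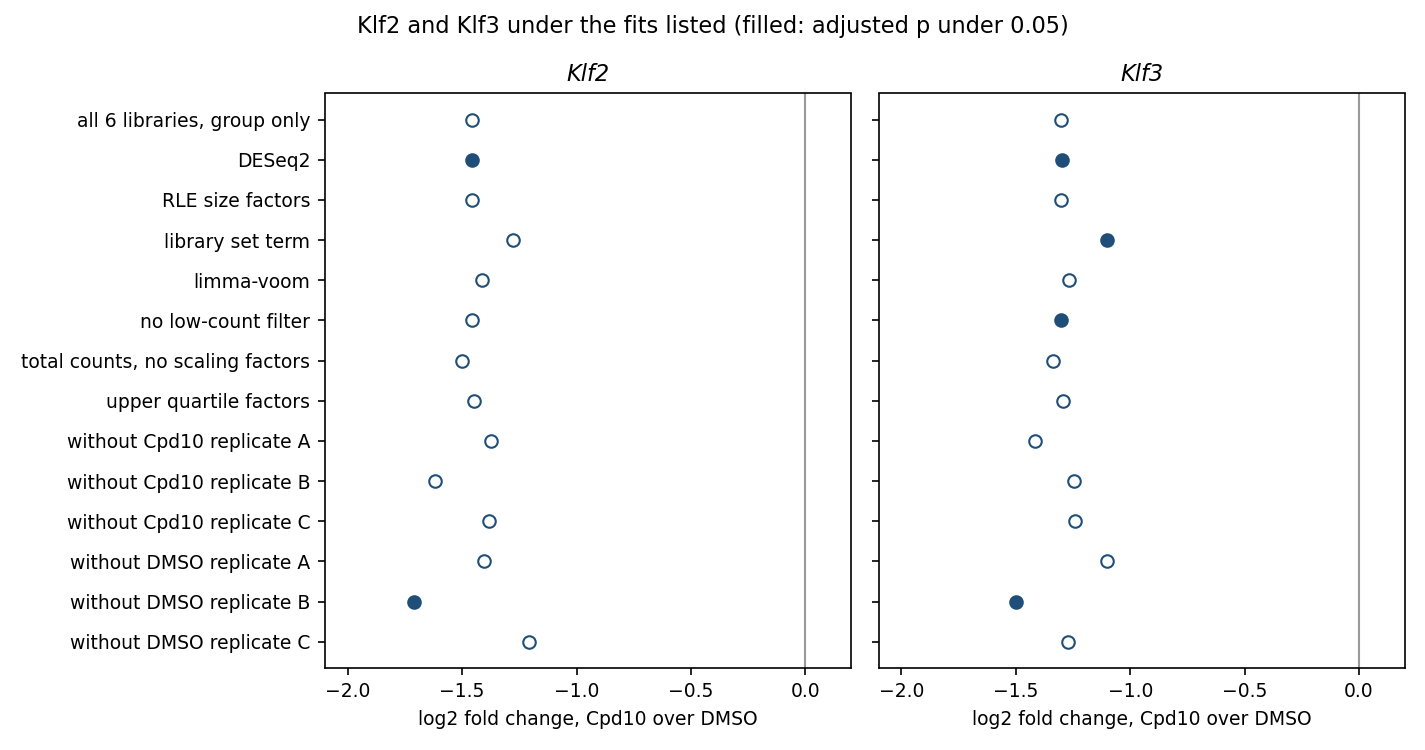
Log2 fold change of Klf2 (left) and Klf3 (right), Cpd10 over DMSO, under the fits listed at the left (the fit with the replicate letter and the set fits with a library left out are not drawn); filled points have an adjusted p under 0.05. All points drawn lie below 0; of them Klf2 is filled for DESeq2 and without DMSO B, and Klf3 for these, the library set term and no low-count filter.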

How the data were processed

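Read counts per gene were deposited by the authors as raw whole numbers in a single table of 6 libraries. STAR 2.7.10a, featureCounts 2.0.6, DESeq2 and the build GRCm38 are named in the submitters' processing notes; a strand setting for counting is not given in the sources used. GENCODE M21 held 54809 of the 54838 identifiers.

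Tests used edgeR 4.0.16 in R 4.3.3 (TMM, filterByExpr, robust quasi-likelihood fit, group as the only term), with Benjamini-Hochberg adjustment over 15136 genes and calls at 0.05. SE is the log2 fold change over the square root of F; 95% intervals use the fit's t distribution. Correlations used log2 CPM with a prior count of 2. The library set is the split into 3 and 3 with the largest number of genes at no more than 3 counts in every library of one side and at least 50 in every library of the other. Alternatives were DESeq2 1.42.0, limma-voom (limma 3.58.1), other scalings, no filter, the replicate letter, the set and each library left out. The procedure was tested on simulated data.

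Members and lists were chosen with earlier results of these data known. Named beside the members are up to 3 tested genes of smallest p per list and, for members averaging 10 CPM or more, the 3 genes of highest r; S1pr1, Foxp1, Skil, Klf14, Klf17 and several marker genes were added after their values were seen.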

Additional observations from a re-analysis of the deposited data

How the results depend on the processing

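The 56 genes called by edgeR became 356 with DESeq2, 194 without the low-count filter and 599 with the library set, and ran from 0 (without Cpd10 C, where 843 had an unadjusted p under 0.05) to 100 (without DMSO B) as 1 library was left out. In fits with the set, added after seeing the data, the count was 907, 437 and 622 without DMSO A, B and C and 130, 343 and 225 without Cpd10 A, B and C. Of the 8 KLF genes, edgeR called 0, DESeq2 2, edgeR without the filter 1 and with the set 1. As 1 library was left out, 0 to 2 were called (2 without DMSO B). With the set and DMSO A, DMSO C, Cpd10 B or Cpd10 C left out, 1 to 3 were called. The replicate block (letters as a term) called 49 genes and 1 KLF gene, Klf3 (-1.27, adjusted p by edgeR = 0.0295). Deviations from the group means correlated at 0.309, 0.432 and -0.315 for the pairs lettered A, B and C. For DMSO C with Cpd10 A and DMSO B with Cpd10 C the values were 0.464 and 0.411. All pairs within a set were above 0 and all pairs across the sets below 0. These values therefore cannot show whether the letters pair the libraries. Why the counts of called genes differ between the fits was not tested.

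Klf2, Klf3, Klf6, Klf7 and Klf9 stayed below 0 in all 20 alternatives, with ranges of -1.87 to -0.67, -1.50 to -0.91, -0.99 to -0.28, -0.32 to -0.19 and -1.24 to -0.30. Klf6 and Klf9 passed in 1 of the 20, the set fit without DMSO C (adjusted p by edgeR = 0.00325 and 0.0369). Signs turned in the other 3. Klf4, from -0.076 to 0.64 as 1 library was left out, was also below 0 without DMSO B (-0.0056). Klf13 was below 0 without Cpd10 A (-0.026, and -0.071 with the set), and reached 0.16 as 1 library was left out and 0.34 in the set fit without DMSO B. Klf10, from -0.34 to 0.47 as 1 library was left out, was above 0 with DESeq2 (0.0017), RLE size factors (0.00087), limma-voom (0.18), no filter (0.0037), the replicate block (0.14), without Cpd10 A (0.16), and with the set without DMSO B (0.12) or DMSO C (0.0084).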
